A study of Rattus norvegicus with 54 samples.

Results

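The border zone was compared with the remote zone of the same hearts in rats that received a cell sheet after myocardial infarction (MI). The comparison used 12 of the 54 libraries of the series, a library from either zone of each of 6 hearts, chosen by their labels (MI with cell sheet, border zone or remote) and paired by the number that the labels give to a heart. By their labels, all animals of the series were female athymic rats of the strain F344/NJcl-rnu/rnu, 8 weeks old at surgery, and all hearts were taken 7 days after surgery. The cell sheet hearts had the left anterior descending coronary artery ligated, and a sheet with a layer of human endothelial progenitor cells and a layer of human smooth muscle cells was then laid on the ischemic wall. The infarct piece came from the anterior wall of the left ventricle, the border zone from the lateral wall and the remote zone from the septum, all below the ligation stitch. Hearts with ligation and no sheet (MI hearts) and hearts with a sham operation, 6 of each and dissected the same way, were set beside them. Athymic rats make no mature T cells and keep their macrophages, natural killer cells and B cells. The labels number the libraries of a group as technical replicates, whereas the study's methods describe 6 hearts a group. For the sequencing, the study's results give a range of animals per group whose upper end is 6. The libraries were treated as 6 hearts, and p-values measure only the spread between these samples.

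After a coronary artery is closed, the muscle it feeds dies and is replaced over days to weeks by granulation tissue and then scar. The border zone is the rim where surviving cardiomyocytes lie beside this tissue, and it is known for macrophages, activated fibroblasts and cardiomyocytes with reduced oxidative metabolism. The remote zone, the muscle far from the closed artery, keeps its blood supply and carries extra load. The border and remote pieces therefore sample damaged and preserved wall of the same ventricle, and in bulk tissue fewer cells of a type and less RNA per cell cannot be told apart.

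Cardiomyocyte markers and correlations across genes checked whether the pieces of the cell sheet hearts were what their labels say. By the correlations, 2 border pieces stood apart. Levels are CPM, a library's counts scaled to a common total with TMM factors. Tnnt2, cardiac troponin T, measured 35.05, 2574, 4814, 2989, 2773 and 1175 CPM in the border zone of hearts 1 to 6, and 2902, 8571, 8521, 6386, 9139 and 7904 CPM in their remote zone. The border piece of heart 1 had less of it than its own infarct piece, at 547.3 CPM. The border piece of heart 6 also had less than its own infarct piece, at 4330 CPM. Over 17743 genes, the border piece of heart 1 correlated better with the mean infarct piece of the other hearts (Pearson r = 0.955) than with their mean border piece (0.925). The remote piece of heart 1 was closer to the border pieces of the other hearts (0.984) than to their remote pieces (0.943), and its Col1a1 level, 10810 CPM, lay above the 427.7 to 2378 CPM of the other remote pieces. The border piece of heart 3 was in turn closer to the remote pieces (0.975) than to the border pieces (0.951) of the other hearts. All remaining border and remote pieces were closest to their own zone. The zone comparison and both comparisons of zone differences between treatments were therefore also fitted without heart 1 and without hearts 1 and 3. These correlations across genes are descriptions, since genes are not independent replicates.

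The libraries labelled sham heart 5 went against the athymic label and stood apart from the other sham hearts. Cd3e, of the T cell receptor complex, measured 102.1, 123.3 and 93.9 CPM in the infarct, border and remote position of this heart, and at most 3.469 CPM in the other 5 sham hearts. Mki67 of cycling cells was at 110.2 to 122.4 CPM against 11.3 to 20.81 CPM, and Cd68 of macrophages at 120.6 to 133.3 CPM against 5.899 to 12.95 CPM. Tnnt2 was lower, at 3348 to 4597 CPM against 7233 to 9989 CPM. Results that use sham hearts are therefore given with and without this heart, and the part of its immune cells in them was not tested.

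**Figure D1:**
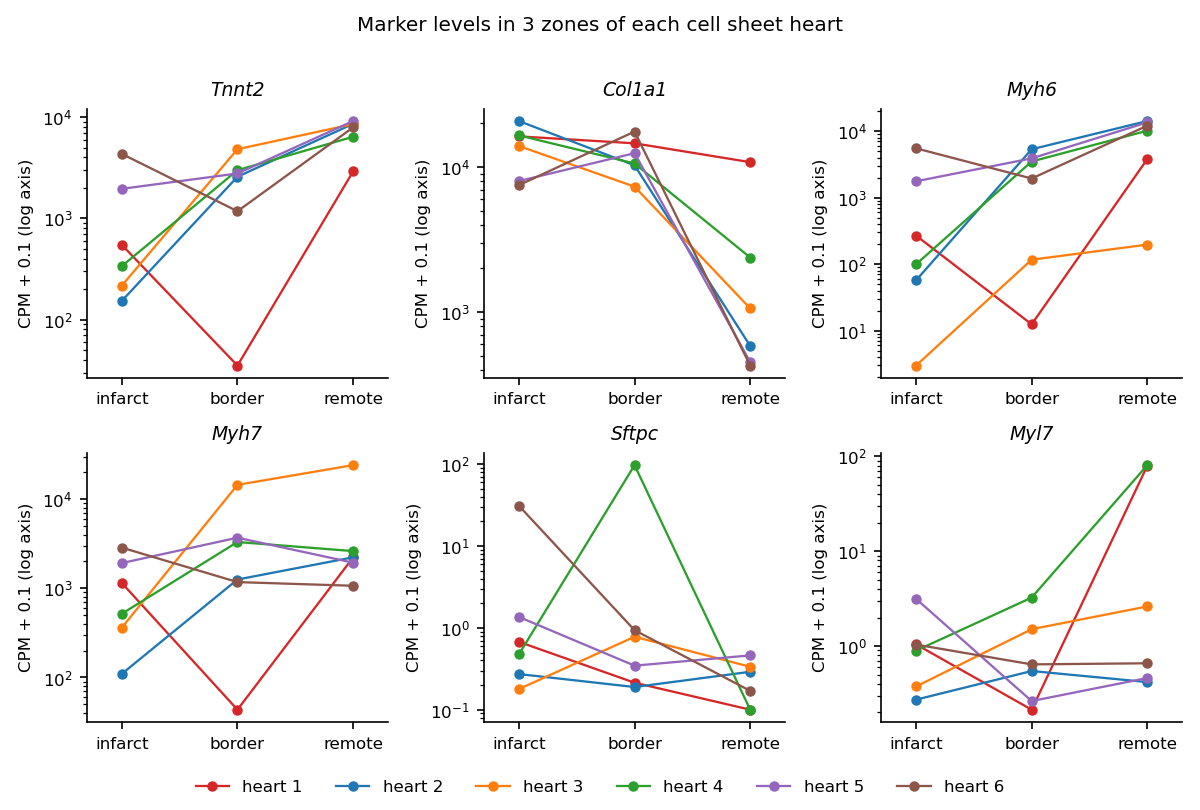
Levels of 6 marker genes (CPM + 0.1, log axis) in the infarct, border and remote piece of each of the 6 cell sheet hearts, with a line per heart. The border piece of heart 1 lies lowest for Tnnt2 (35.05 CPM), heart 3 is low for Myh6 and high for Myh7 in its remote piece (196.2 and 24040 CPM), and Sftpc stands at 97.49 CPM in the border piece of heart 4.

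Gene counts per library lay between 18307506 and 22523580 in the border zone and between 15799147 and 18347983 in the remote zone, so counting error was small except for low genes. The share of counts that fell in no annotated gene was 16.7% ± 3.40 for border pieces against 23.1% ± 2.84 for remote pieces (SD, n = 6 each). It was lower in the border zone of 6 of 6 hearts (exact permutation test over pairs, 2-sided p = 0.03125, the smallest that 6 pairs allow). Its part in the gene differences was not tested.

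The zones differed at 56.4% of the genes tested. Of 15904 genes, 4648 were higher in the border zone (29.2%) and 4327 were lower (27.2%) by edgeR's quasi-likelihood test with the heart as a block and a Benjamini-Hochberg adjusted p under 0.05, and 62.8% had an unadjusted p under 0.05. A rise of more than 1 on the log2 scale was seen for 1935 genes (12.2%) and a fall of that size for 1525 (9.59%). The difference had the same sign in 6 of 6 hearts for 8076 genes (50.8%). The 6 border and 6 remote levels did not overlap for 787 genes (4.95%). With so many genes called, the share of a gene list that passed is to be read against the 29.2% higher and 27.2% lower. The median log2 fold change of a list is to be read against 0.04, the median over all genes tested. Positive values are higher in the border zone throughout.

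Without heart 1, 9063 of 15849 genes were called (57.2%), 4526 higher and 4537 lower (28.6% each). Among the 8975 genes called with 6 hearts, 8271 were called again and all of these in the same direction. Without hearts 1 and 3, 8863 of 15970 were called, and 8062 were shared, again all in the same direction. Scaling by library size alone, without TMM factors, raised the median of all genes from 0.04 to 0.24 and moved the split from 4648 higher and 4327 lower to 6525 higher and 3017 lower. Changes are best read relative to that shift.

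**Figure D2:**
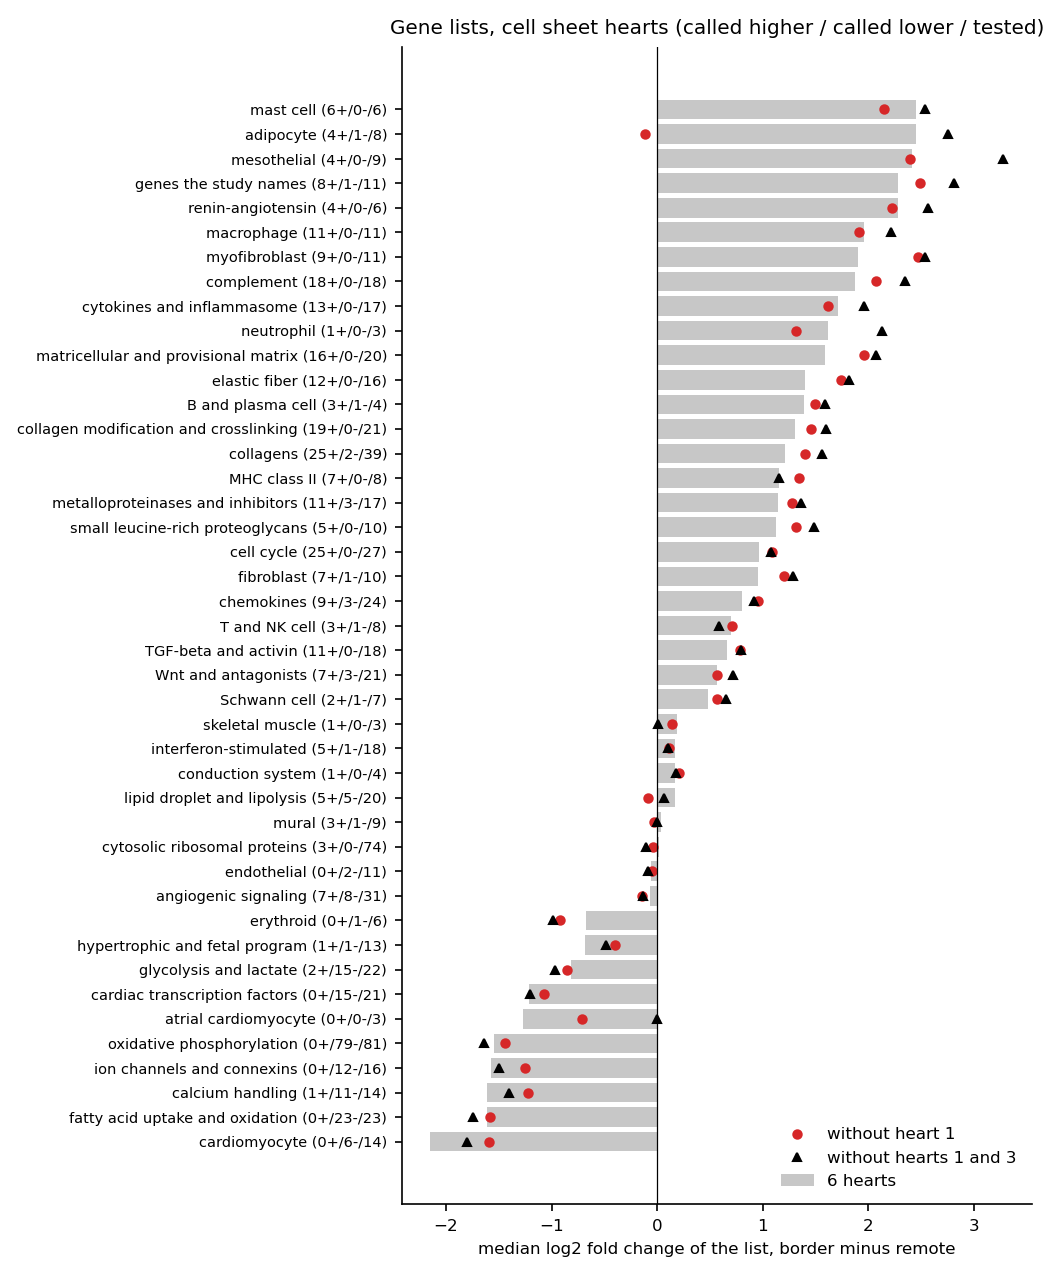
Median log2 fold change (border minus remote) of each gene list in 6 hearts (bars), without heart 1 (circles) and without hearts 1 and 3 (triangles), with the numbers called higher and lower of those tested. Muscle and mitochondrial lists lie below 0, while matrix, macrophage and complement lists lie above it. For the adipocyte list, 3 genes (Adipoq, Plin1 and Cidec) fell below the filter on low counts without heart 1.

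Genes of the contractile apparatus and of excitation were lower in the border zone. The cardiomyocyte list had a median of -2.15, and 6 of its 14 genes fell and 0 rose. Tnni3, cardiac troponin I, ran from 13.34 over a median of 1587 to 3254 CPM in the border zone and from 2037 over 6621 to 8004 CPM in the remote zone. The only overlap was that heart 1 had less Tnni3 in its remote piece than heart 3 had in its border piece. Tnni3 fell by 2.53 ± 0.82 on the log2 scale (estimate ± SE, as for all fold changes; adjusted p = 0.032) and was lower in the border piece of 6 of 6 hearts. Without heart 1 its log2 fold change was -1.96 (adjusted p = 0.0065), a smaller difference with less spread. The same held for the list, of which 14 of 14 genes fell without heart 1, with a median of -1.59. Leaving out heart 5 or heart 6 instead left 1 called gene and leaving out heart 2 left 2. Myh6, the fast myosin heavy chain of rat ventricle, did not pass the test with 6 hearts (log2 fold change -2.17 ± 0.92, adjusted p = 0.077) and did without heart 1 (-1.59).

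Calcium handling genes fell with the sarcomere genes. Of 14 tested, 11 fell and 1 rose, with a median of -1.61. Atp2a2, the SERCA2 pump that returns calcium to the sarcoplasmic reticulum, measured 340.5, 3823 and 4802 CPM (lowest, median and highest) in the border zone against 4363, 10220 and 13890 CPM in the remote zone. Its log2 fold change was -1.91 ± 0.44 (adjusted p = 0.0093), and every border piece was below the remote piece of the same heart. Pln, phospholamban, the inhibitor of this pump, fell by 2.41 ± 0.77 (adjusted p = 0.030), and Trdn, triadin of the calcium release complex, fell by 2.27. The member that rose was Fkbp1b (0.73), which binds the ryanodine receptor, and it lost its call without any one of hearts 2 to 6. The number of members lower was 7 without heart 2, 5 or 6.

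Ion channels and connexins gave 12 lower of 16, with a median of -1.58. Gja1, connexin 43 of the gap junctions between cardiomyocytes, had 334.0 to 733.7 CPM in the border zone and 457.3 to 1260 CPM in the remote zone. It fell by 0.86 ± 0.14 (adjusted p = 0.0031) and its direction was the same in 6 of 6 hearts. Kcnip2, a subunit of the transient outward potassium channel, fell by 2.02, and Kcnj11, the pore of the ATP-sensitive potassium channel, fell by 2.08. Both lost their call without heart 2, 5 or 6, and Kcnip2 also without heart 4. The number of members lower was 7 without heart 2, 8 without heart 5 and 6 without heart 6. Cardiac transcription factors and coactivators gave 15 lower of 21 (median -1.22). Among these were Nkx2-5 (-1.96 ± 0.67), Mef2a (-0.63 ± 0.10) and Ppargc1a (-2.01 ± 0.53), the coactivator of mitochondrial genes. Nkx2-5 lost its call without heart 2, 4, 5 or 6.

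Genes of the hypertrophic and fetal program did not share a direction that passed the test. Of 13, only Tpm4, a non-muscle tropomyosin, rose (0.75 ± 0.15) and only Flnc, filamin C, fell (-0.54 ± 0.18). Nppa, atrial natriuretic peptide, had 11.9 to 6115 CPM in the border zone and 556.2 to 5761 CPM in the remote zone. These ranges overlapped almost wholly. By heart, Nppa was higher in the border than in the remote piece in hearts 2 to 6. In heart 1 it was lower there, at 11.9 against 5761 CPM. Myosin heavy chain levels set 1 heart apart in both zones. In heart 3, Myh6 was 116.2 CPM in the border zone and 196.2 CPM in the remote zone while Myh7, the slow isoform, was 14440 and 24040 CPM. In the remote zone of the other 5 hearts Myh7 did not exceed 2612 CPM.

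Genes of oxidative metabolism fell almost as whole lists. Of 81 tested genes of the respiratory chain and ATP synthase, 79 fell and 0 rose, with a median of -1.55. Leaving out any heart left between 73 and 79 lower. Atp5f1a, the alpha subunit of ATP synthase, measured 354.5, 1646 and 2282 CPM in the border zone (lowest, median, highest) and 1671, 4443 and 5233 CPM in the remote zone. Every heart had less in its border piece, and only the remote piece of heart 1 came down to the level of the other border pieces. Its log2 fold change was -1.59 ± 0.26 (adjusted p = 0.0034). The members that did not pass were Cox6a2 (-2.14), a heart and muscle subunit of cytochrome oxidase, and Ndufa4l2 (0.11), a hypoxia-responsive relative of a respiratory chain subunit. Cox8b, another muscle form of cytochrome oxidase, was among the 10 largest falls at -2.70 ± 0.99 (adjusted p = 0.049), and it lost its call without heart 2, 3, 5 or 6.

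Fatty acid uptake and oxidation fell as a whole list, with 23 of 23 genes lower and a median of -1.61. Without any given heart, 22 or 23 were lower. Hadhb, a subunit of the mitochondrial trifunctional protein of beta-oxidation, ran from 91.88 to 555.6 CPM in the border zone and from 486.8 to 1910 CPM in the remote zone. It fell by 1.86 ± 0.23 (adjusted p = 0.0029) in 6 of 6 hearts. Cpt1b, which admits fatty acids to mitochondria, fell by 2.04 ± 0.48, and Fabp3, the fatty acid binding protein of heart muscle, fell by 2.73 ± 0.77. Glycolytic genes were divided. Of 22, 15 fell and 2 rose (median -0.81). The muscle isoforms Pgam2 (-2.22 ± 0.52) and Eno3 (-2.19 ± 0.37) fell, as did Gapdh (-1.305 ± 0.25), often used as a reference gene. The 2 that rose were the lactate exporter Slc16a3 (1.77) and the glucose transporter Slc2a1 (0.58), the latter without a call when heart 1 was left out (0.40).

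**Figure D3:**
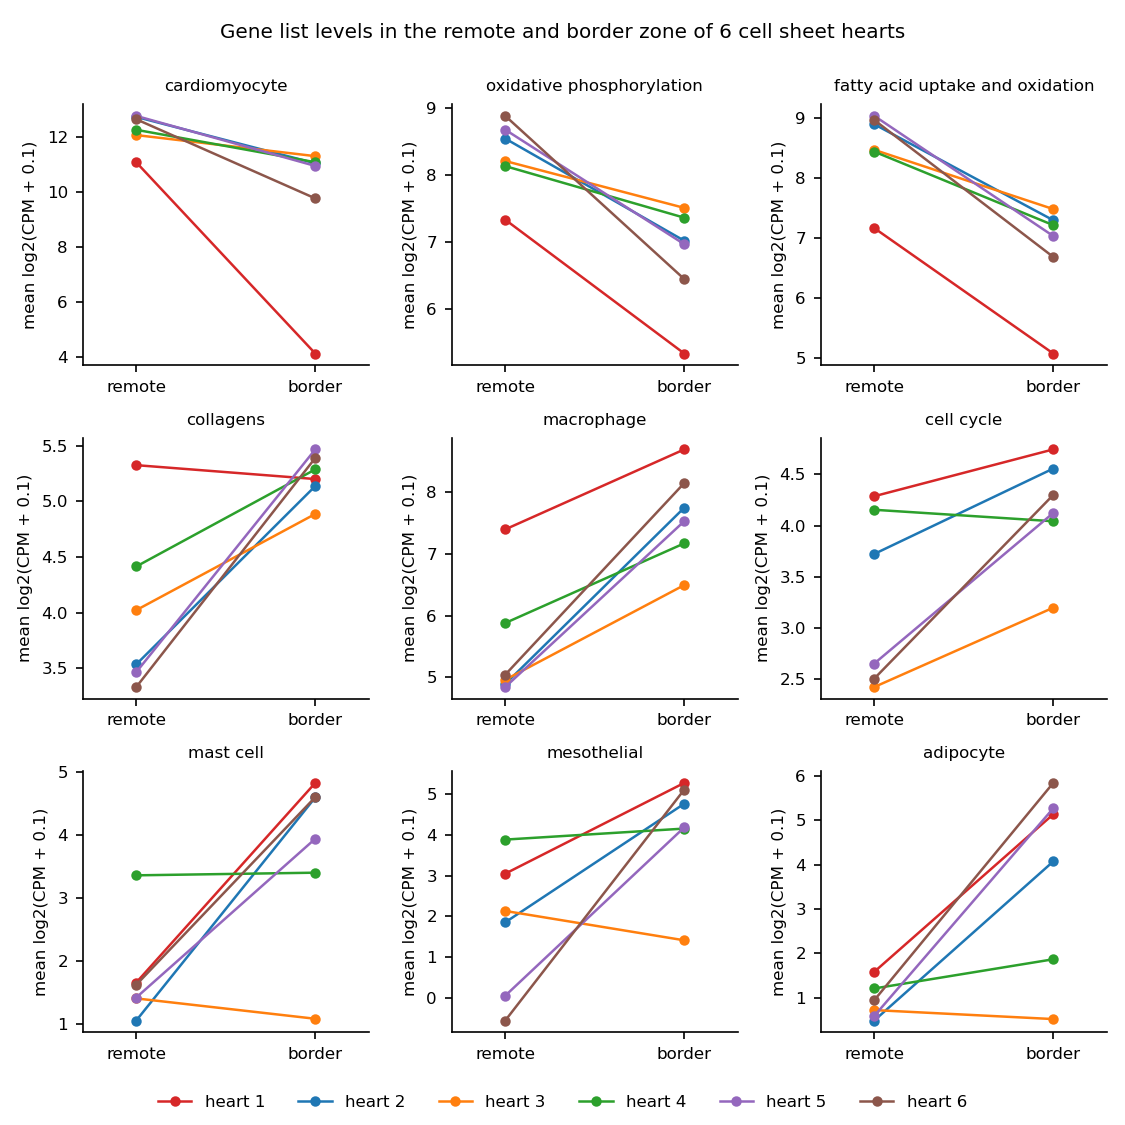
Mean log2(CPM + 0.1) of 9 gene lists in the remote and border piece of each cell sheet heart, with a line per heart. Cardiomyocyte, oxidative phosphorylation and fatty acid lists went down toward the border zone in 6 of 6 hearts and the macrophage list went up in 6 of 6. In heart 3 the mast cell, mesothelial and adipocyte lists did not go up.

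Fibrillar collagens and the enzymes that assemble them were higher in the border zone. Of 39 collagen genes tested, 25 rose and 2 fell (Col19a1 and Col4a3), with a median of 1.21. Col1a1, the alpha1 chain of type I collagen, measured 14580, 10280, 7326, 10590, 12470 and 17570 CPM in the border zone of hearts 1 to 6. In the remote zone it measured 10810, 584.3, 1060, 2378, 451.9 and 427.7 CPM. The zones overlapped through the remote piece of heart 1 and were apart in the other 5 hearts. Col1a1 rose by 3.38 ± 0.78 (adjusted p = 0.0092), and by 3.89 without heart 1. Col3a1 rose by 2.69 ± 0.68 and lost its call without heart 2. Type VI collagen chains that the study picked from these libraries rose in nearly equal steps, Col6a1 by 2.27 ± 0.43, Col6a2 by 2.28 ± 0.42 and Col6a3 by 2.29 ± 0.48. Col12a1, which the study also picked, rose by 3.84 ± 0.88. Since these were chosen on the same libraries, they are not independent evidence of a direction. Of the 11 genes that the study names, 8 rose and 1 fell. Col11a1, a minor fibrillar chain, rose by 4.74 ± 1.25 although heart 1 had more in its remote piece (176 CPM) than in its border piece (107 CPM), and it lost its call without heart 2.

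Of 21 genes for collagen modification and crosslinking, 19 rose and 0 fell, and 18 or 19 rose without any given heart. Lox, lysyl oxidase, had 261.8 to 609.6 CPM in the border zone and 24.89 to 402.3 CPM in the remote zone, with a rise of 2.85 ± 0.58 (adjusted p = 0.0059). P4ha3, a prolyl hydroxylase subunit, rose by 3.97 ± 0.90. In the matricellular and provisional matrix list, 16 of 20 rose and 0 fell (median 1.59), with 10 higher without heart 2 and 11 without heart 5. Its members without a call included Ccn1 (0.35) and Ccn2 (0.82), which are known as early response genes. Ccn2 passed without heart 1 (1.31). Fn1, fibronectin, ran from 1294 over 3246 to 6309 CPM in the border zone and from 147.1 over 283.0 to 2609 CPM in the remote zone. It rose by 3.02 ± 0.61 (adjusted p = 0.0060) in 6 of 6 hearts. Spp1, osteopontin, a product of wound macrophages, rose by 4.02 ± 0.78 (adjusted p = 0.0050). Heart 1 held most of it, 2035 CPM in its border and 318.4 CPM in its remote piece, against 20.57 to 469 CPM in the other border pieces.

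The lists of activated and resting fibroblasts rose to different extents. Of 11 myofibroblast genes, 9 rose and 0 fell (median 1.90), among them Postn, periostin (3.87 ± 1.07), Cthrc1 (3.98 ± 0.96) and Acta2, smooth muscle actin (0.86 ± 0.26). Postn was higher in the border piece in 5 of 6 hearts. Heart 1 had 2783 CPM in its remote and 1631 CPM in its border piece. The call was lost for Postn without heart 2 or 5, and for Acta2 without heart 3, 4, 5 or 6. Of 10 fibroblast genes, 7 rose and 1 fell (median 0.95). Pdgfra, the receptor that marks cardiac fibroblasts, rose by 1.203 ± 0.15 (adjusted p = 0.0029), whereas Tcf21, a transcription factor of resting fibroblasts, was at -0.72 ± 0.44 (adjusted p = 0.19), and Gsn fell by 0.80 ± 0.15. Without heart 2 or 5, 4 myofibroblast and 2 fibroblast genes remained higher by count. Small leucine-rich proteoglycans (5 of 10 higher, 0 lower) and elastic fiber genes (12 of 16 higher, 0 lower) followed. The first list had 8 higher without heart 1, and the second had 7 without heart 2 or 5. Bgn, biglycan, rose by 2.27 ± 0.54 and Eln, elastin, by 1.96 ± 0.65, the latter without a call when any of hearts 2 to 6 was left out.

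Among metalloproteinases and their inhibitors, 11 of 17 rose and 3 fell, the same counts without any given heart. Mmp9 rose by 4.53 ± 0.94 (0.679 to 63.69 CPM in the border zone, at most 0.972 CPM in the remote zone), Mmp12 of macrophages by 3.97 ± 0.57 and Timp1 by 2.25. The fold change of Mmp9 rests on these low remote levels. The members that fell were Mmp15 (-0.66), Timp3 (-0.41) and Timp4 (-1.15), an inhibitor known from cardiac muscle. In the TGF-beta and activin list 11 of 18 rose and 0 fell (median 0.66). Tgfb1 measured 52.05 to 92.75 CPM in the border zone and 26.92 to 64.20 CPM in the remote zone, and rose by 1.00 ± 0.12 (adjusted p = 0.0029). The receptor Tgfbr2 rose by 0.87 ± 0.16 and the antagonist Fst, follistatin, by 2.38 ± 0.55. The inhibitory Smad7 had a log2 fold change of -0.62 and did not pass. Counts in this list fell to 5 without heart 3.

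In the renin-angiotensin list 4 of 6 rose. Ace, angiotensin-converting enzyme, had 43.56 to 140.5 CPM in the border zone and 16.03 to 44.71 CPM in the remote zone and rose by 1.74 ± 0.20 (adjusted p = 0.0029). Agt, angiotensinogen, rose by 3.10 ± 0.87 and lost its call without heart 2, 5 or 6, and Cma1, the chymase of mast cells, by 3.61 ± 0.89.

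**Figure D4:**
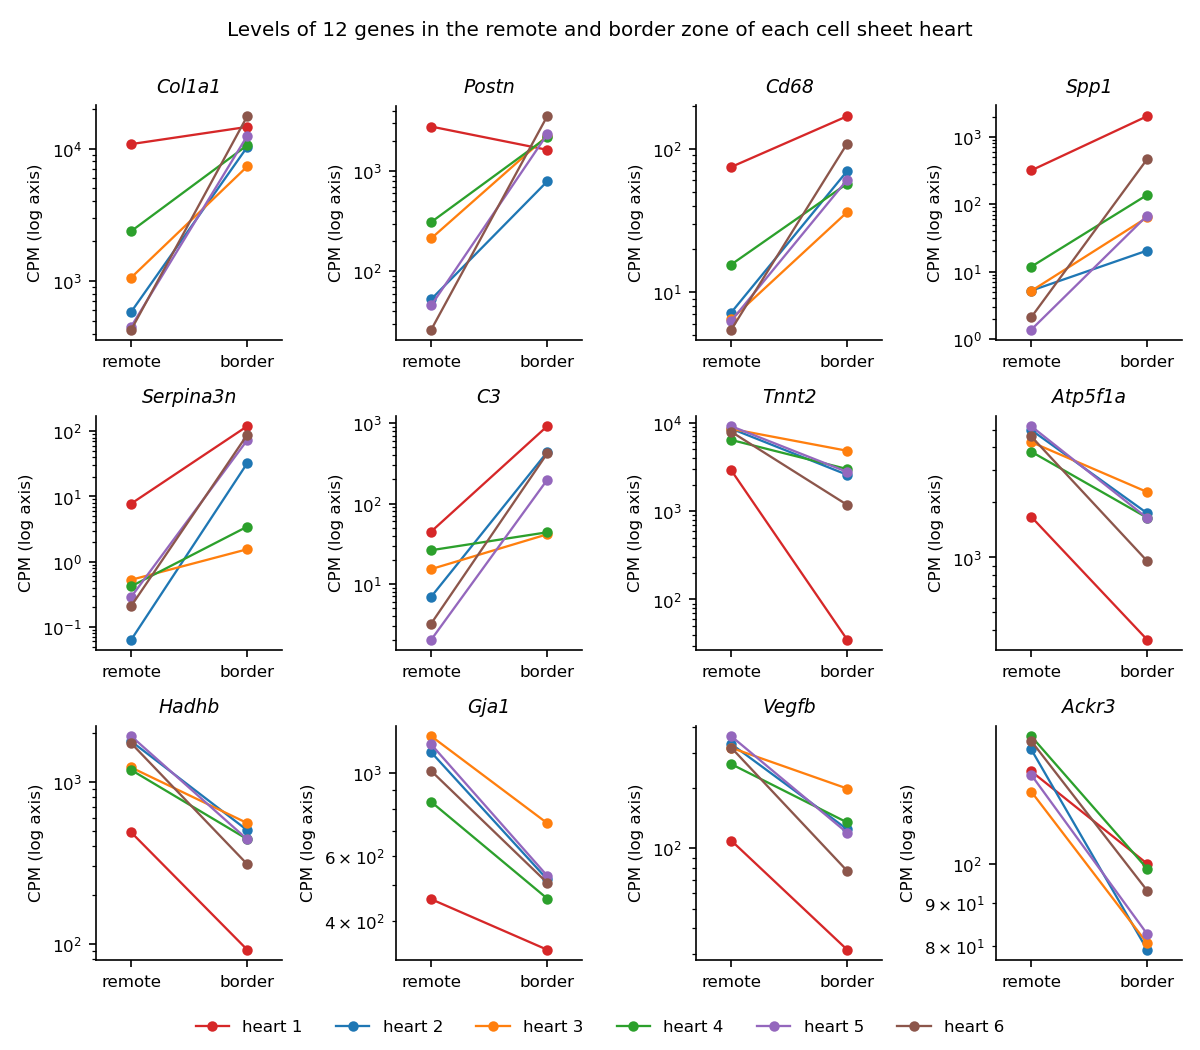
Levels of 12 genes (CPM, log axis) in the remote and border piece of each cell sheet heart, with a line per heart. Cd68, Spp1, Serpina3n, C3 and Col1a1 went up toward the border zone in 6 of 6 hearts and Tnnt2, Atp5f1a, Hadhb, Gja1, Vegfb and Ackr3 went down in 6 of 6, while Postn went down in heart 1.

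Macrophage genes rose without exception. All 11 tested were called higher (median 1.96), and 10 or 11 were called without any given heart. Cd68, the lysosomal macrophage marker, measured 168.5, 69.9, 36.09, 57.0, 60.8 and 108.6 CPM in the border zone of hearts 1 to 6. Its remote zone levels were 74.51, 7.18, 6.45, 15.54, 6.28 and 5.453 CPM. All remote pieces except that of heart 1 were below all border pieces. Cd68 rose by 2.74 ± 0.41 (adjusted p = 0.0030), Csf1r, the receptor of the macrophage growth factor, by 1.75 ± 0.28, and Gpnmb, a marker of lipid-laden macrophages, by 3.27 ± 0.61. The summed level of the list ran from 2175 to 7476 CPM in the border zone and from 494.1 to 4269 CPM in the remote zone.

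Complement genes gave the same result, with 18 of 18 higher and a median of 1.87 (15 to 18 without any given heart). C3, the central component, ran from 41.47 over 309.0 to 919.0 CPM in the border zone and from 2.021 over 11.12 to 44.87 CPM in the remote zone. C3 rose by 4.51 ± 1.12 (adjusted p = 0.012). The rise was small in hearts 3 and 4, with 41.47 and 43.9 CPM in the border zone against 15.3 and 26.3 CPM in the remote zone. C6, of the membrane attack complex, rose by 4.64 ± 1.17 and C1qa by 1.85 ± 0.27. Of 17 cytokine and inflammasome genes, 13 rose and 0 fell (median 1.71). Il10, an anti-inflammatory cytokine, was at 0.146 to 29.4 CPM in the border zone and at no more than 0.660 CPM in the remote zone. It rose by 5.53 ± 0.92 (adjusted p = 0.0035), a fold change that rests on remote levels near 0. Without heart 4 it fell below the filter on low counts and was not tested. Il1rn, the interleukin-1 receptor antagonist, rose by 3.00 ± 0.47 and Csf1, the macrophage growth factor, by 0.89 ± 0.14.

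Chemokines were mixed, with 9 of 24 higher and 3 lower (median 0.80), against 29.2% and 27.2% of all genes. Ccl9, a macrophage attractant, rose by 4.67 ± 0.44 and Cxcl13, which attracts B cells, by 3.02 ± 0.43. Cx3cl1, fractalkine, fell by 0.85 ± 0.27 and Cxcl11 fell by 1.37. MHC class II genes were higher for 7 of 8 (median 1.15), RT1-Da by 1.195 ± 0.27 and RT1-Bb by 1.24 ± 0.29. The invariant chain Cd74 did not change beyond its spread (-0.10). Interferon-stimulated genes stayed near the median of all genes, with a list median of 0.17. Of 18, 5 were higher and 1 lower, shares below the 29.2% and 27.2% of all genes. Mx1, an antiviral GTPase, was the largest of those that rose (1.14 ± 0.28).

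Lymphocyte markers were low in the cell sheet hearts. Cd3e, of the T cell receptor complex, had 0.542 to 2.41 CPM in the border zone and 0.0699 to 1.24 CPM in the remote zone, and did not pass with 6 hearts (1.26 ± 0.53, adjusted p = 0.075). It passed without heart 1 (1.68). Of 8 T and NK cell genes tested, 3 rose, Cd8a by 2.70 ± 0.44, Cd4 by 1.67 ± 0.25 and Lck by 1.25, and Gzmb fell by 1.09, a call lost without heart 3, 4, 5 or 6. In the rat, Cd4 is known from macrophages too. Cd79a and Jchain of B and plasma cells rose by 1.54 ± 0.45 and 2.79 ± 0.53 from levels of at most 1.46 CPM in the remote zone, and Mzb1 of plasma cells fell by 0.94. The call of Mzb1 was lost without any one of hearts 2 to 6 and that of Cd79a without heart 2, 3 or 5. Neutrophil genes S100a8 and S100a9 did not pass (1.61 ± 0.82 and 1.41 ± 0.73, adjusted p = 0.13 for both), and Csf3r, the granulocyte growth factor receptor, which monocytes also make, rose by 2.89 ± 0.61.

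Mast cell genes rose in some hearts only. All 6 tested were called higher (median 2.45), but 1 without heart 1 and 0 without heart 2, 5 or 6. Cpa3, mast cell carboxypeptidase, measured 122, 110, 2.668, 31.2, 51.1 and 103 CPM in the border zone of hearts 1 to 6 and 7.02, 3.88, 3.87, 32.63, 5.63 and 4.61 CPM in the remote zone. Hearts 3 and 4 showed no rise. Without hearts 1 and 3, 5 of 6 mast cell genes were called.

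Cell cycle genes rose by small steps that were shared across the list. Of 27 tested, 25 were higher and 0 lower, with a median of 0.97. Mki67, a marker of cycling cells, measured 103.5, 101, 24.59, 55.2, 64.3 and 67.1 CPM in the border zone and 66.5, 47.9, 11.02, 71.15, 22.0 and 16.5 CPM in the remote zone. It was higher in the border piece of 5 of 6 hearts, with heart 4 going the other way. Mki67 rose by 1.05 ± 0.29 (adjusted p = 0.017), Plk1, a mitotic kinase, by 1.44 ± 0.42 and Mcm3, of the replication helicase, by 1.303 ± 0.29. The count depended on which hearts were used, at 8 without heart 5, 10 without heart 2, 15 without hearts 1 and 3 and 26 without heart 4. Ribosomal protein genes, a large set that most cells express, gave 3 of 74 higher, 0 lower and a median of 0.02, which was -0.04 without heart 1. Under library-size scaling, 19 of 74 were higher and the median was 0.21. The largest rise among the 3 was that of Rpl3, by 1.102 ± 0.15 (adjusted p = 0.0029).

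Promoters of genes from the lists that moved together were read to show what their start regions hold. RefSeq promoter windows of the GRCr8 assembly, from 250 bases before to 50 after the start, matched 11777 of the 15904 genes by symbol. The motif AAGGTCA, the core site of estrogen-related receptors, was found on either strand in 10 of 70 oxidative phosphorylation promoters (14.3%), in 1 of 18 of fatty acid genes (5.56%), in 3.43% of promoters of all genes called lower and in 4.37% of all 27457 promoters. The motif CCAAT, bound by NF-Y, was in 16 of 20 cell cycle promoters (80%) and in 37.7% of all. The motif GAGGAAG, a core of PU.1 sites, was in 6 of 10 macrophage promoters (60%) and in 12.4% of all. CCAAT was about as frequent among genes called higher (35.6%) as lower (38.9%), and GAGGAAG was in 15.1% and 12%. Motifs were counted where their letters occur, whatever other motif overlaps them, and a match is neither a site nor a cause.

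The 150 bases before the start are shown for pairs of genes from these lists that carry the motif and have their values above or here, 5′ to 3′ on the strand of the gene, with the motif in capitals as it reads on that strand, in its own letters or as its reverse complement. Atp5f1e (chr3:183680173-183680322, minus strand) and Atp5mg (chr8:54130408-54130557, minus strand) encode ATP synthase subunits and fell by 1.60 and 1.66. Cdk1 (chr20:19265143-19265292, plus strand) and Ccnb1 (chr2:33655226-33655375, minus strand) form the mitotic kinase and rose by 0.95 and 1.15, with the call of Cdk1 lost without hearts 1 and 3. Mrc1 (chr17:82157575-82157724, plus strand) and Trem2 (chr9:20151780-20151929, minus strand) encode macrophage receptors and rose by 1.74 and 2.29.
Atp5f1e: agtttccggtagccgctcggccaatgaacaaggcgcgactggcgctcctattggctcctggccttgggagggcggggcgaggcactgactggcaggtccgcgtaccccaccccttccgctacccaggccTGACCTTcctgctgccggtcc
Atp5mg: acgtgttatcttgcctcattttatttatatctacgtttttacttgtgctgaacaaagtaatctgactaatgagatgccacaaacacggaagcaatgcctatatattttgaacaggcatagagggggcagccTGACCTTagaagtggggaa
Cdk1: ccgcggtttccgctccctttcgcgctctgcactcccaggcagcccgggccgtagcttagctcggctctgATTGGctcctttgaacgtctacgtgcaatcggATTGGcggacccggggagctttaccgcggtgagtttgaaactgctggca
Ccnb1: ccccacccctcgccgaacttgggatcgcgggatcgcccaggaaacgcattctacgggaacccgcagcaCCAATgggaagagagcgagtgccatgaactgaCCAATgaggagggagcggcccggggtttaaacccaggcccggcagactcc
Mrc1: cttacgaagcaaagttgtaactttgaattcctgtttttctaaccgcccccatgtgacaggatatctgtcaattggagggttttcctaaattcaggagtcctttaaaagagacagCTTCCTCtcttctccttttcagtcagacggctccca
Trem2: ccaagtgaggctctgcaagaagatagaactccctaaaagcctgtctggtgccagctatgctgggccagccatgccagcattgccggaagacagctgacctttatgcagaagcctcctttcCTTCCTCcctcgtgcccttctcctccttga
In Cdk1 and in Ccnb1 the motif occurred 2 times in these 150 bases, starting 81 and 49 bases before the start in Cdk1 and 82 and 50 bases before it in Ccnb1. In the other windows it occurred 1 time, 21 bases before the start in Atp5f1e, 19 in Atp5mg, 36 in Mrc1 and 30 in Trem2.

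Vascular genes were close to equal in the zones. Of 11 endothelial genes, 2 fell and 0 rose, with a median of -0.06 that turned to 0.14 (0.135) when libraries were scaled by size alone, with 3 then higher and 1 lower. Without heart 1, 4 fell, and without heart 2, 5 or 6, 1 fell. Pecam1, CD31, measured 385.0, 333.9, 250, 294.3, 302.9 and 326.4 CPM in the border zone of hearts 1 to 6 and 263.0 to 329.0 CPM in the remote zone, and was at 0.11 ± 0.11 on the log2 scale (adjusted p = 0.42). Kdr, the main VEGF receptor, fell by 0.50 ± 0.13 (adjusted p = 0.013) and Tek, the angiopoietin receptor, by 0.25 ± 0.07. The summed level of the list was 1625 to 2023 CPM in the border zone and 1634 to 2026 CPM in the remote zone. Of 9 mural cell genes, 3 rose and 1 fell (median 0.03), against 29.2% and 27.2% of all genes. Pdgfrb, the receptor of pericytes and fibroblasts, rose by 1.07 ± 0.23 and Abcc9 fell by 0.48 ± 0.10. Rgs5, a pericyte marker, was at 0.03 ± 0.10 (adjusted p = 0.79) and had the opposite sign without heart 1.

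Notch3, a receptor of mural cells that the study names, measured 292, 242, 200, 180.4, 216 and 251 CPM in the border zone of hearts 1 to 6. In the remote zone it measured 164.8, 110, 151, 113, 107 and 102.8 CPM. The zones did not overlap. Notch3 rose by 0.93 ± 0.13 (adjusted p = 0.0029) and kept its call without any given heart. Ackr3, a scavenging receptor for the chemokine Cxcl12, also separated the zones completely, with 79.29 to 99.95 CPM in the border zone and 121.4 to 140.9 CPM in the remote zone. It fell by 0.53 ± 0.07 (adjusted p = 0.0029) in 6 of 6 hearts. Cxcl12 and its other receptor Cxcr4 had log2 fold changes of 0.70 ± 0.29 (adjusted p = 0.072) and 0.33 ± 0.15 (adjusted p = 0.094). Both passed under another setting, Cxcr4 without heart 1 (0.44) and Cxcl12 without heart 3 (0.87) and without hearts 1 and 3 (0.62). Without heart 1 alone, Cxcl12 did not pass (0.44). Cxcl12 was lower in the border than in the remote piece of heart 3, at 220 and 270 CPM.

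The angiogenic signaling list was split, with 7 of 31 higher and 8 lower, shares below the 29.2% and 27.2% of all genes. Its median was -0.07, or 0.12 when libraries were scaled by size alone, with 13 then higher and 6 lower. Without heart 1, 9 were higher and 11 lower, and 5 were lower without heart 2 or 5. Vegfa, the main angiogenic ligand, ran from 191.2 to 583.1 CPM in the border zone and from 461.2 to 894.1 CPM in the remote zone and fell by 0.96 ± 0.17 (adjusted p = 0.0042). Vegfb, a ligand abundant in heart muscle, fell by 1.38 ± 0.19 (adjusted p = 0.0029). Vegfd rose by 1.34 ± 0.37, and of the angiopoietins Angpt1 fell by 1.26 while Angpt2, its antagonist, rose by 1.22. Cardiomyocyte markers fell in the same hearts (median -2.15), and their part in the levels of Vegfa and Vegfb was not tested.

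Of 21 genes in the list of Wnt ligands and antagonists, 7 rose and 3 fell (median 0.57), against 29.2% and 27.2% of all genes, and 1 fell without heart 2, 5 or 6. Sfrp4 measured 12.95 to 179.7 CPM in the border zone and 0.636 to 21.00 CPM in the remote zone and rose by 4.69 ± 0.92 (adjusted p = 0.0053). Sfrp2 rose by 3.40 ± 0.65, Sfrp1 by 2.48 ± 0.53, and the ligand Wnt4 by 4.72 ± 0.97. Wnt11 fell by 1.34, and Wnt9b by 1.42, a call lost without heart 1.

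Markers of the heart surface and of fat moved with some hearts. Of 9 mesothelial genes, 4 rose (median 2.41), with 9 called without heart 3, 7 without heart 4, 1 without heart 1 or 6, and 0 without heart 2 or 5. Msln, mesothelin, measured 360, 222, 11.01, 107, 131 and 291.9 CPM in the border zone and 56.8, 16.3, 15.1, 85.54, 2.53 and 1.188 CPM in the remote zone, and did not pass (3.15 ± 1.21, adjusted p = 0.057). Hearts 3 and 4 again showed little difference. Of 8 fat cell genes tested, 4 rose and 1 fell (median 2.45). Without heart 1, 5 were tested, of which 1 rose and 2 fell. Cidea fell by 1.49 (adjusted p = 0.0038) and kept its call without any given heart. Adipoq, adiponectin, and Plin1, which coats lipid droplets, are members of this list that followed the same hearts as Msln. Adipoq was at 178.1, 49.08, 0, 1.834, 116.1 and 233.2 CPM in the border zone and at most 1.998 CPM in the remote zone, and Plin1 at 125.5, 41.9, 0, 2.05, 131 and 193.4 CPM and at most 0.918 CPM. Their fitted fold changes rest on remote levels at or near 0 and are not given.

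Of 20 lipid droplet and lipolysis genes, 5 rose and 5 fell, shares below the 29.2% and 27.2% of all genes. Fasn and Scd, enzymes of fatty acid synthesis and desaturation, rose by 2.51 ± 0.80 and 5.32 ± 1.57 and lost their calls without heart 2 or 5. Lpl, lipoprotein lipase, abundant in heart muscle, fell by 1.40 ± 0.21 (adjusted p = 0.0030), and Plin5 of muscle lipid droplets fell by 2.29. Markers of other tissues were high in single pieces. Lung surfactant genes reached 97.49 (Sftpc), 55.95 (Sftpa1) and 24.33 CPM (Sftpb) in the border piece of heart 4, where no other border or remote piece of the cell sheet hearts exceeded 0.84 CPM. Sftpc, Sftpa1 and Sftpb also reached 91.31, 66.03 and 12.73 CPM in the border piece of MI heart 3. Atrial genes Myl7 and Sln reached 79.53 and 26.84 CPM in the remote piece of cell sheet heart 1. In that of cell sheet heart 4 they reached 80.75 and 17.88 CPM. They did not exceed 3.15 CPM in the other border and remote pieces of the cell sheet hearts. In the remote piece of MI heart 1 they reached 62.49 and 24.92 CPM, and in that of sham heart 6 201.1 and 72.42 CPM. The part of mesothelial, fat, lung and atrial tissue in the differences between zones was not tested.

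Of the Schwann cell genes, S100b rose by 2.55 ± 0.75 and Mbp, of myelin, by 1.63 ± 0.54, and both calls were lost without heart 2, 5 or 6. Globin genes, near-identical copies whose reads may be split between them, were at log2 fold changes of -0.65 ± 0.34 (Hba-a1) and -0.65 ± 0.36 (Hbb) and did not pass, while the red cell membrane gene Slc4a1 fell by 1.04 ± 0.37 and lost its call without any one of hearts 2 to 6. Skeletal muscle myosins Myh1, Myh2 and Myh4 did not exceed 0.92 CPM in any border or remote piece.

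The 10 largest rises with the same direction in 6 of 6 hearts and a mean log2 CPM of at least 1 were Cidec, Ca3, Il10, Serpina3n, Scd, Rbp4, Tnn, Ndnf, Calml3 and Adam12. Ca3, carbonic anhydrase 3, abundant in fat and slow muscle, measured 762, 258, 25.66, 29.2, 713 and 1294 CPM in the border zone and 44.44, 1.08, 2.46, 3.00, 0.866 and 0.280 CPM in the remote zone. Every border piece but those of hearts 3 and 4 exceeded every remote piece. Ca3 rose by 6.25 ± 1.43 (adjusted p = 0.0091). Serpina3n, a secreted protease inhibitor of inflamed tissue, rose by 5.46 ± 0.93 (adjusted p = 0.0035), Tnn, the matrix glycoprotein tenascin N, by 5.22 ± 1.12 and Rbp4, a retinol carrier made by fat and liver, by 5.29 ± 1.00. Adam12, a metalloproteinase of activated stromal cells, and Ndnf, a secreted endothelial survival factor, are genes that the study picked from these libraries. Adam12 was at 40.16 to 397.1 CPM in the border zone and 0.650 to 114.1 CPM in the remote zone (4.86 ± 1.14, adjusted p = 0.0098). Ndnf was at 1.261 to 39.8 CPM and 0 to 5.16 CPM (5.00 ± 0.85, adjusted p = 0.0035). Of these 10 genes, Cidec, Il10 and Scd lost their call or fell below the filter when 1 heart was left out. The rank of Il10 rests on remote levels near 0, and those of Ca3, Ndnf and Adam12 in part on low levels in some remote pieces. No levels are given here for Cidec, which was not tested without heart 1.

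The 10 largest falls by the same rule were Ccdc78, Dhrs7c, Fabp3, Dcdc5, Cox8b, Sbk2, Tuba8, Atp2b2, Tnni3 and Gzmc. Dhrs7c, a sarcoplasmic reticulum dehydrogenase of striated muscle, had 0.189 to 50.8 CPM in the border zone and 31.6 to 235 CPM in the remote zone and fell by 2.75 ± 0.63 (adjusted p = 0.0091). Tuba8, an alpha-tubulin of heart and muscle, had 0.568 to 56.4 CPM and 53.5 to 246 CPM and fell by 2.61 ± 0.62. Both were lower in 6 of 6 hearts. Gzmc, a granzyme of cytotoxic cells, fell by 2.48 ± 0.47 from 2.97 to 12.9 CPM in the remote zone to 0.189 to 3.58 CPM in the border zone.

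The comparison with MI hearts asked whether the zone difference was different without a sheet. In MI hearts, 0 of 15738 genes passed (0%) by edgeR with the heart as a block. At an unadjusted p under 0.05 there were 5943 (37.8%), DESeq2 called 4651 and limma-voom 0. Pieces of MI hearts were uneven too. Tnnt2 was lower in the border than in the infarct piece of MI heart 1 (4010 and 5551 CPM) and MI heart 3 (972.7 and 3545 CPM). In MI heart 5 it was 4434 CPM in the border and 4502 CPM in the remote piece, and in MI heart 2 640.5 and 6166 CPM. Correlations with zone means were not computed for MI pieces, and the part of this spread in the counts was not tested. Directions were mostly shared. Of 4554 genes that rose toward the border in cell sheet hearts and were tested in MI hearts, 4131 (90.7%) had a positive log2 fold change there, and 3866 of 4263 lower genes (90.7%) had a negative one. The median log2 fold change of the higher genes was 0.82 in cell sheet and 0.43 in MI hearts, and of the lower genes -0.74 and -0.44. Since these genes were selected in the cell sheet hearts, a smaller median in MI hearts is not a test of a difference. The groups share no library.

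The difference of the zone differences was tested as an interaction, and 0 of 16784 genes passed with edgeR (0%), with 3430 at an unadjusted p under 0.05 (20.4%) and 1183 called by DESeq2. Without cell sheet heart 1, 216 of 16901 passed (1.28%), 164 with a larger and 52 with a smaller value in cell sheet hearts. Without hearts 1 and 3 there were 461 of 17080, with 316 larger and 145 smaller, and without MI heart 6 there were 84. The absence of calls with all hearts therefore does not hold for every set of hearts. The 3 genes of lowest p were Mall (0.63 ± 0.09 in cell sheet and -0.31 ± 0.12 in MI hearts), Tlcd4 (0.82 ± 0.12 and -0.14 ± 0.10) and Elmo1, an adaptor for cell engulfment and migration (0.45 ± 0.09 and -0.37 ± 0.10), each with an adjusted p of 0.097. The cell cycle list had a median zone difference of 0.97 in cell sheet and 0.07 in MI hearts. In cell sheet hearts its summed level was 309.7 to 855.1 CPM in the border and 214.8 to 616.3 CPM in the remote zone. In MI hearts it was 576.1 to 864.8 CPM and 486.9 to 904.8 CPM, so border levels were not higher with a sheet. None of the 27 cell cycle genes passed the interaction test, with a lowest adjusted p of 0.117 by edgeR. Side by side, list medians in cell sheet and MI hearts were -1.55 and -0.77 for oxidative phosphorylation, -2.15 and -1.33 for cardiomyocyte genes, 1.96 and 1.29 for macrophage genes, and 1.21 and 0.64 for collagens. Whether these lists differ between the groups was not tested. MHC class II medians were 1.15 and 1.02.

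Sham hearts gave the lateral wall against the septum without an infarct. Of 15074 genes, 3880 passed (25.7%), with a median absolute log2 fold change of 0.37 against 0.79 for the genes called in cell sheet hearts. Of the genes called in cell sheet hearts and tested in sham, 29.3% were also called in sham, and of those called in sham and tested in cell sheet hearts, 64.6% were called in cell sheet hearts. Of the 2500 called in both, 1641 had the same direction. Without sham heart 5, 2804 of 15104 passed, 1382 higher and 1422 lower, with a median absolute log2 fold change of 0.38. Of the 1824 then called in both, 1092 had the same direction. The interaction with sham called 7264 of 16518 genes (44%), 3541 larger and 3723 smaller in cell sheet hearts. It called 6671 of 16626 without sham heart 5 and 8307 of 16731 without cell sheet hearts 1 and 3.

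Gene groups differed in how far sham hearts shared their direction. Oxidative phosphorylation genes went the other way, with 50 of 81 higher and 2 lower in the lateral wall of sham hearts (median 0.39), and 77 of 81 were smaller in cell sheet hearts by the interaction. Without sham heart 5 these counts were 58, 1 and 77. Gja1 fell by 0.73 ± 0.11 in sham hearts (adjusted p = 0.0013) and by 0.86 in cell sheet hearts, and the interaction was not called for it (adjusted p = 0.58). Without sham heart 5 it fell by 0.60 in sham hearts (adjusted p = 0.0014). Ion channel genes were lower for 11 of 16 and cardiac transcription factors for 15 of 21 in sham hearts, or for 10 and 12 without sham heart 5. Macrophage genes were higher in the lateral wall of sham hearts for 8 of 11 with this heart and for 2 of 11 without it. All 11 macrophage genes and 22 of 39 collagen genes had a larger zone difference in cell sheet hearts, or 10 and 19 without sham heart 5. Of the genes with the lowest p, Tgfb1 was at 1.00 in cell sheet and -0.31 in sham hearts, Psmb6, a proteasome subunit, at -0.88 and 0.77, Dusp4, a MAP kinase phosphatase, at 1.43 and -0.11, and Decr1, of fatty acid oxidation, at -1.47 and 0.08. Notch3 was at 0.93 and -0.53 (interaction adjusted p = 0.00043). Without sham heart 5 the sham values were -0.28 for Tgfb1, 0.78 for Psmb6, -0.09 for Dusp4, 0.11 for Decr1 and -0.40 for Notch3, and the interaction was called for all 5.

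**Figure D5:**
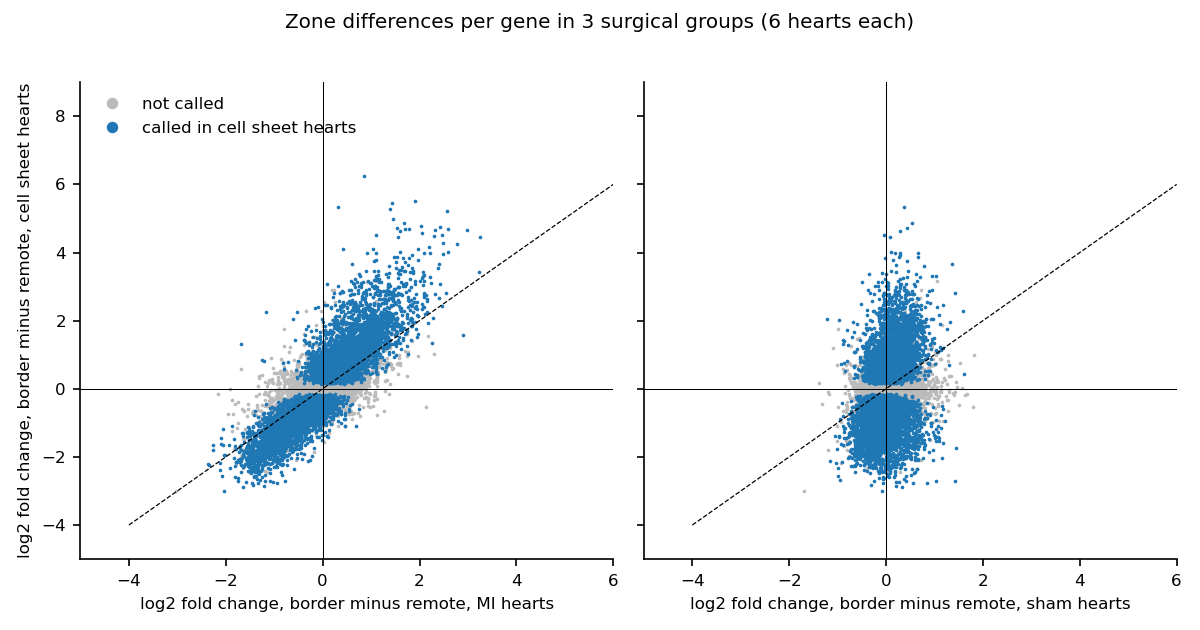
Log2 fold change (border minus remote) of each gene in cell sheet hearts against that in MI hearts (left) and sham hearts (right), 6 hearts each, with genes called in cell sheet hearts in blue and the dashed line marking equal values. The cloud is elongated for MI (Pearson r = 0.82 across 15430 genes) and upright for sham (r = 0.27 across 14890 genes, or 0.22 across 14880 without sham heart 5).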

How the data were processed

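Poly(A) RNA of each piece of heart wall was sequenced as paired reads. The authors aligned the reads with STAR to the rat assembly mRatBN7.2 and deposited raw counts per gene for each library, 40319 genes listed by symbol. The read counter and its strand setting are not given in the sources used here, so overlapping and antisense genes cannot be told apart. The submitters' processing notes also name DESeq2. The 5 summary lines of each file (no feature, ambiguous and the like) entered neither library sizes nor tests. They held 17.11% to 31.9% of the counts of the cell sheet border and remote libraries. Reads from the human cells of the sheet were not analysed here.

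Border and remote libraries were paired because the same number marks pieces of the same heart. Deviations of same-numbered libraries from their zone means correlated at 0.564, 0.305, 0.435, -0.043, 0.167 and -0.238 in cell sheet hearts 1 to 6. The highest correlation of each border library with the remote library of another heart was 0.18, 0.154, 0.415, 0.241, 0.094 and 0.457. Cell sheet hearts 4 and 6 were thus closer to another heart than to their own. The same held for MI hearts 2, 3, 5 and 6 and for sham heart 2. Counts were fitted with edgeR 4.0.16 in R 4.3.3 (TMM factors, filterByExpr, quasi-likelihood F test, heart as a block). Benjamini-Hochberg adjustment ran over all genes tested, with a threshold of 0.05. The prior count of the fit was left at edgeR's default. A prior count of 2 was used only in an alternative for list levels. Interactions compared the zone difference between treatments. The standard error was taken as the fold change divided by the square root of F. Levels are CPM with TMM factors over all 54 libraries, and list levels are means of log2(CPM + 0.1). The fit was tested on simulated data in which few genes changed, as many up as down, and no piece stood apart. That test therefore does not cover data with as many changed genes and outlying pieces as these. Alternatives were DESeq2 1.42.0, limma-voom (limma 3.58.1), library-size scaling, no filter, at least 10 counts, no block and each heart left out. After the data were seen, leaving out cell sheet hearts 1 and 3 was added to the comparisons that use them, and leaving out sham heart 5 to the lists and named genes of sham hearts. Intervals of counting error were not needed at this depth.

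Genes were named by rule: the 10 largest rises and falls with an adjusted p under the threshold, a mean level of 1 or more in log2 CPM and the same direction in 6 of 6 hearts; for each list, the first genes of a cell type list and the called members with the largest change and the highest level; the genes that the study names; and the genes of lowest p in each interaction. Other list members, Myh7 and the genes shown with promoters were chosen after their values were seen. The gene lists (18 of cell types, 26 of processes) and comparisons were chosen with earlier results of these data known. A result on 1 item is not reported here.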

Additional observations from a re-analysis of the deposited data

Results flagged for a closer look

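Among 36 groups of 6 libraries, 5 list scores (mean log2(CPM + 0.1)) had a library far from the rest by Dixon's test, which chance would give in about 1 group of 20. The cardiomyocyte score of the border piece of heart 1 was 4.11, and the other border pieces had 9.75 to 11.29. The fibroblast score of the remote piece of heart 1 was 8.74, against 7.38 to 7.85 in the other remote pieces. The mast cell score of the remote piece of heart 4 was 3.36, against 1.05 to 1.66 (1.655). The mesothelial score of the border piece of heart 3 was 1.42 (1.415), against 4.16 to 5.28. The lung epithelium score of the border piece of heart 4 was 4.42, against -2.04 to -1.37. The part of the dissection in these values was not tested.

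The zone difference was not the same in cell sheet and sham hearts for 7264 genes by the interaction test.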

How the results depend on the processing

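In cell sheet hearts the number of genes called stayed within 1.5 times of 8975 with DESeq2, limma-voom, library-size scaling, both other filters, no replicate block (7468), without hearts 1 and 3, and without each heart in turn (6615 to 9063). Requiring a log2 fold change over 1 left 3460 there and 102 in sham hearts. In MI hearts, where edgeR with the block called 0 genes, DESeq2 called 4651 and the fit without the block 3409, and leaving out each MI heart left 0. In sham hearts 307 were called without the block and 2437 to 3838 without each heart, the lowest without sham heart 1. For the interaction with MI, DESeq2 called 1183, the fit without the block 6, leaving out 1 heart 0 to 216 and leaving out cell sheet hearts 1 and 3 461. For the interaction with sham, 2669 were called without the block. Causes of these shifts were not tested. Of 162 named genes called in cell sheet hearts, 111 were called without any given heart. Without hearts 1 to 6 in turn, 12, 42, 14, 15, 41 and 35 lost the call or were not tested.

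Signs turned for small values. The adipocyte and atrial medians also changed and were not small with 6 hearts, at 2.449 and -1.276. Under library-size scaling, Cspg4 became 0.069, the endothelial median 0.135 and the angiogenic median 0.124. Without heart 1, Rgs5 was -0.037, the mural median -0.03, the adipocyte median -0.114 (over fewer tested genes), the ribosomal median -0.036 and the lipid droplet median -0.088. Without hearts 1 and 3, Rgs5 was -0.001, the mural median -0.004, the atrial median 0 (over fewer tested genes) and the ribosomal median -0.103. Of the other gene and list values, 201 kept sign and call without heart 1, 9 lost and 6 gained the call.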

Other observations

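The infarct piece of heart 6 was closer to the remote pieces of the other hearts (Pearson r = 0.975 across genes) than to their infarct pieces (0.932), and its Tnnt2 level was 4330 CPM, against 152.8 to 1956 CPM in the infarct pieces of the other 5 hearts. This infarct piece entered no comparison of zones here. The border piece of heart 6 did, and it had less Tnnt2 (1175 CPM) than this infarct piece. Col1a1 was at 17570 CPM in the border and 7503 CPM in the infarct piece of heart 6.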
